A study of Mus musculus with 58 samples.

Results

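The 10 genes described here encode transcription factors that act in blood stem cells: Gata2, Tal1, Lyl1, Lmo2, Erg, Fli1, Gfi1b, Meis1, Hlf and Mecom. They were chosen by name, as established stem cell regulators, with earlier results of these data known. All 10 were found among the 55376 gene symbols that each RNA count file lists. Their RNA was followed through 6 diet groups and 4 groups of transplanted cells, and their loci through maps of open chromatin, of histone marks and of PU.1, an ETS factor.

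The study asked how caloric restriction (CR) and a return to free feeding act on hematopoietic stem cells (HSCs) of old and young mice. HSCs of male C57BL/6 mice, genotype WT throughout the diet groups, were sorted from bone marrow as Lineage- Sca1+ Kit+ cells lacking CD34 and Flk2 and carrying CD150. Messenger RNA, accessible chromatin (ATAC-seq), histone marks and PU.1 binding (ChIP-seq) were measured by sequencing. A second experiment put old HSCs with gene knockdowns into irradiated recipients.

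Old mice were 24 to 26 months of age. OAL mice ate ad libitum, OCR mice had eaten 40% less since early adulthood, and OCRRF mice returned to ad libitum food for 4 weeks after that lifelong restriction. Young mice were 3 to 4 months of age. YAL mice ate ad libitum, YCR mice had a month of restriction, by 20% in the first week and by 40% afterwards, and YCRRF mice were then fed ad libitum for 4 weeks. RNA came from 4 libraries in each of YAL, YCR, YCRRF, OAL and OCR and from 2 OCRRF libraries.

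The transplanted cells were old ad libitum HSCs, cultured, infected with lentivirus carrying short hairpin RNAs (shRNAs), and re-sorted from CD45.1 females as CD45.2+ HSCs. KdrKD (label GFP_Kdr, 4 libraries) carried a Kdr shRNA with GFP, and KdrScr (2 libraries) its scrambled control. DoubleKD (label Double_KdrBmpr, 4 libraries) carried the Kdr shRNA together with an mCherry vector for Bmpr1a, shRNA1 in 2 libraries and shRNA2 in the other 2, and DoubleScr (2 libraries) had scrambled controls.

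These groups are limited as models in several ways. Old and young mice came from different colonies, the National Institute on Aging and Jackson. Old libraries counted 42071 to 46646 genes and young libraries 22209 to 33496. Age therefore cannot be told apart from source or from this difference between libraries. All young groups are labelled 3 to 4 months, but as the authors describe it the YCRRF schedule ran 4 weeks longer than those of YAL and YCR. Refeeding in young mice therefore cannot be told apart from that added time. Transplanted cells had passed through culture, infection and a second host, and their sort used CD48 in place of CD34 and Flk2. Replicates are separate samples only as far as their labels say. OAL libraries for ATAC-seq and histone marks are listed in the series without a file and were not analysed here.

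Read totals over genes ran from 11102898 to 36579392 in the young libraries, from 23497989 to 34385179 in the old and from 35657999 to 44780217 in the transplanted. RNA levels below are in CPM (counts-per-million, scaled by edgeR's TMM method), with one scaling of all 22 diet libraries and one of the 12 transplanted libraries, and they show the spread between samples with counting error included. No 2 libraries of a group repeated each other: the lowest chi-square per degree of freedom between them was 8.17. Replicate 3 of YCRRF stood apart, at 153 to 336 against the other 3, which lay between 28.4 and 56.4 from one another. The counts of called members, the marker sums and the range of the correlations that use it are given with and without it.

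The label of the cells was checked against 12 HSC markers, none of which was at 0 in any library. Their summed level averaged 4761 CPM in OAL, 4366 in OCR, 4109 in OCRRF, 4980 in YAL, 4832 in YCR and 5147 in YCRRF (5411 without replicate 3), with Kit the most abundant. Among the YCRRF libraries replicate 3 had the lowest sum, 4355 CPM against 5274 to 5596. Another 4 markers were Cd34, Flt3 (Flk2) and Il7r, whose proteins the diet sort gated against, and Cd48, which that sort did not use. They summed to 123 to 139 CPM in the old group means and 185 to 231 in the young, most of it Cd34 (181.9 of the 231.1 in YCR), and in YCRRF to 185.4, or 195.5 without replicate 3. In transplanted groups the HSC markers summed to 3529 to 4258 CPM and the 4 other markers to 437 to 784, again led by Cd34. Of those 4 the transplant sort gated only on CD48.

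GATA2, TAL1, LYL1 and LMO2 meet in DNA-bound complexes: GATA2 binds GATA motifs through zinc fingers, TAL1 and LYL1 are basic helix-loop-helix proteins that bind E-boxes with E-proteins, and LMO2 is a LIM-only adaptor that holds them together without touching DNA. ERG and FLI1 are ETS factors that bind GGAA cores beside these complexes, GFI1B is a zinc finger repressor that recruits LSD1 and CoREST, MEIS1 is a TALE homeodomain partner of PBX and HOX proteins, HLF is a PAR bZIP factor, and Mecom encodes the EVI1 zinc finger protein. Blood stem cells express these genes together, and loss of several of them impairs stem cell emergence or maintenance.

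Levels can be compared between genes only per length of exon. Per kilobase, Lmo2 had the highest mean over the diet libraries, 589 CPM, above 99.7% of the 12263 genes with at least 5 CPM and an exon length in the annotation. Gata2 followed at 101, then Hlf at 87.9 and Fli1 at 87.1. Gfi1b at 65.9 and Meis1 at 62.6 were also close, and Lyl1 stood at 37.2. The place of Gfi1b differed by group. Its group mean was 105.65 in YCR, where Gata2 had 103.4, and 36.0 in OCRRF, where Lyl1 had 34.9. Erg at 25.2 and Mecom at 24.2 lay side by side, and Tal1 was lowest at 17.4, above 69.7% of those genes. Apart from Lmo2, which lay above the rest in every library, neighbours in this order had overlapping ranges over the libraries. Those of Meis1 and Lyl1 overlapped only through replicate 3 of YCRRF. Without it the lowest Meis1 value was 53.7, in OCR replicate 3, and the highest Lyl1 value 45.8, in YCR replicate 1. In the transplanted libraries Lmo2 again led, at 393 CPM per kilobase, and Tal1 was again last, at 8.72, while Lyl1 stood at 14.2 and Hlf at 45.3.

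On GRCm38 the complex members lie at chr6:88193891-88207032 (Gata2), chr4:115056426-115071755 (Tal1), chr8:84701457-84704715 (Lyl1) and chr2:103957986-103981878 (Lmo2), and the ETS genes at chr16:95359169-95586593 (Erg) and chr9:32422204-32542861 (Fli1). Gfi1b lies at chr2:28609450-28621982, Meis1 at chr11:18879817-19018985, Hlf at chr11:90336536-90390895 and Mecom at chr3:29951296-30548008. Some members share exon bases with another gene: Mecom shares 81 with the antisense gene Mecomos, Meis1 shares 1925 with Gm16140 and Gm37818, and Lyl1 shares 4 with Nfix. The strand used for counting is not stated, so some reads may have been left out or assigned to the neighbour. Raw counts of Mecomos were 67 to 455 per diet library and those of Gm16140 575 to 2398.

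**Figure D1:**
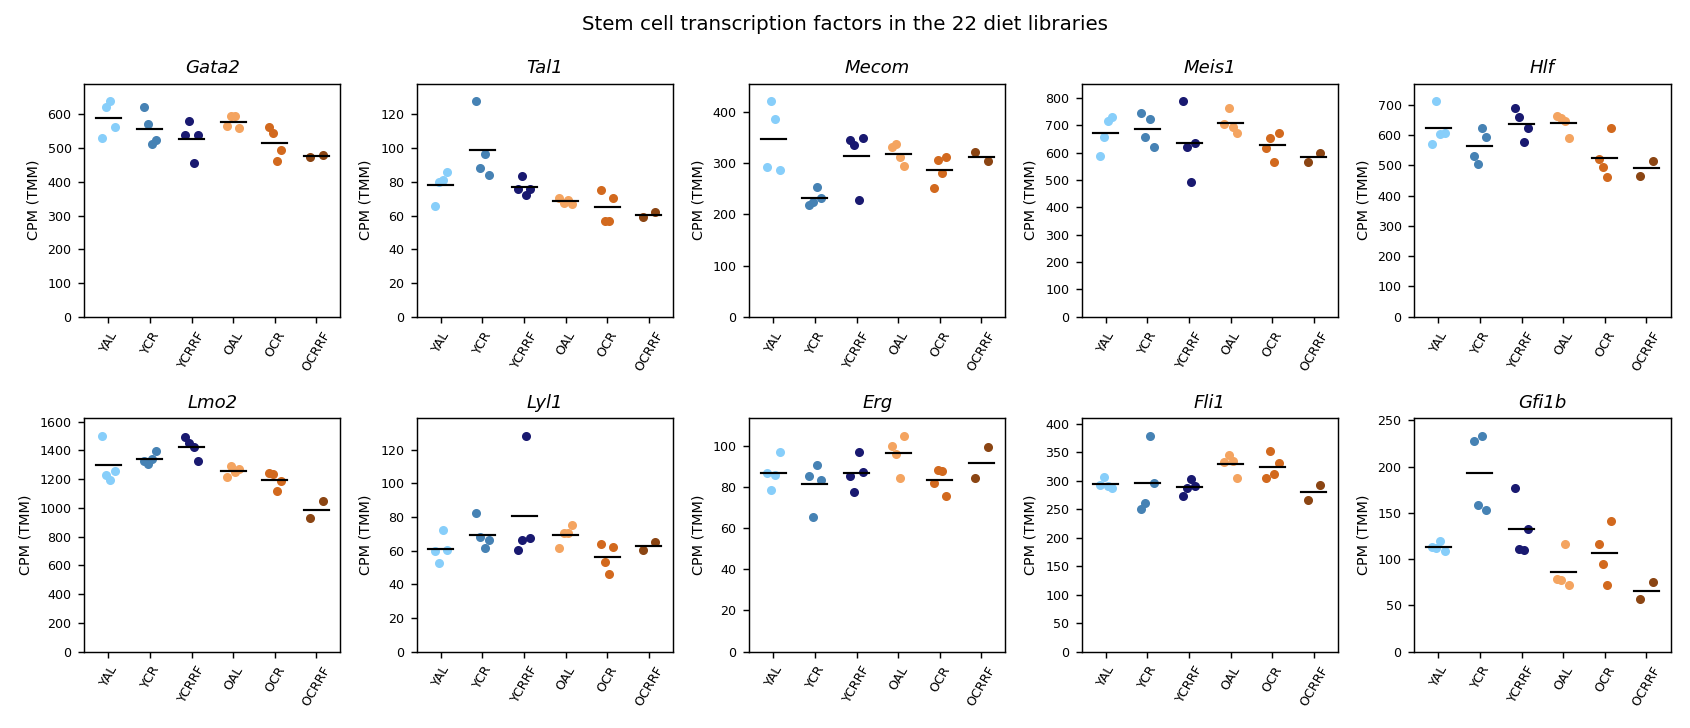
RNA level of each of the 10 genes in CPM (vertical axis from 0) in the 22 diet libraries by group (horizontal axis). Each point is 1 library and each bar is the group mean. Gfi1b was higher in each YCR library than in any YAL library, and Lmo2 was lower in both OCRRF libraries than in any other diet library.

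The first comparison, OCR versus OAL, asks what lifelong restriction did to these genes in old HSCs. A gene counts as called at an adjusted p below 0.05 and a fold above 1.2 by edgeR's quasi-likelihood test. Of the 10 members 0 were called, against 5.57% of the 27150 genes tested. At an unadjusted p below 0.05 there were 4 members, with 16.2% of all genes, and DESeq2 called 1 member, Hlf, with 7.1%. In bulk samples, fewer cells of a type and less RNA per cell cannot be told apart. The fitted differences of 9 members were below 0, with a median over the 10 of -0.14 (log2), against 0.02 over all genes and -0.03 over genes with at least 5 CPM, of which 11.1% were called. Fli1 at -0.00 crossed 0 under other scalings.

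Hlf measured 664, 656, 646 and 589 CPM in the 4 OAL libraries and 520.5, 495, 459.8 and 622 in the 4 OCR libraries. Its OCR values lay below all OAL values except in OCR replicate 4, which sat inside the OAL range. The fitted difference was -0.27 ± 0.09 (log2, SE) with an adjusted p of 0.0854. It was called at 0.00997 without OCR replicate 4, at 0.0371 with no filter on low counts and at 0.0420 by DESeq2, in a range of 0.0371 to 0.482 over the other settings. Lyl1 was the other member near that size, at -0.28 ± 0.10 with an adjusted p of 0.109, and Erg stood at -0.19 ± 0.09.

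Gfi1b, the repressor, measured 78.8, 77.8, 116 and 71.6 CPM in OAL and 117, 94.3, 72.0 and 142 in OCR. OAL replicate 3 was the highest of its group and OCR replicate 3 the lowest of its own. The fitted difference was 0.32 ± 0.15, with an adjusted p of 0.260. It was called without OAL replicate 3, at 0.0415, without OCR replicate 3, at 0.0455, and with no filter on low counts, at 0.0257, in a range of 0.0257 to 1 over the settings. Without OCR replicate 4, the highest of that group, the difference was 0.15 and the adjusted p 0.700.

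OCRRF versus OCR asks what 4 weeks of free feeding changed after lifelong restriction. The test called 1 of the 10 members, against 3.41% of the 32577 genes tested, and it was lower, as were 2.71% of all genes tested. Among genes with at least 5 CPM, a level all members exceed, 8.31% were called in either direction and the median was -0.14, close to the member median of -0.16. The median of all genes was 0.11, which became 0.24 when the scaling was taken only from genes with at least 5 CPM.

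The called gene was Gfi1b, at 56.7 and 74.9 CPM in the 2 OCRRF libraries against the 4 OCR values above. OCRRF replicate 1 was lower than any other diet library, and replicate 2 lay just above the lowest OCR value. Gfi1b fell by 0.75 ± 0.17 on the log2 scale, with an adjusted p of 0.0049 from edgeR, a fold of 0.593. Without OCRRF replicate 1 the difference was -0.60 and the adjusted p 0.175, so that the call was lost, and the other 5 such fits kept it. DESeq2 gave 0.0638, a scaling from genes with at least 5 CPM 0.0824 and a joint fit of all diet groups 0.642, which also miss the threshold, in a range of 9.63e-07 to 0.642 over the settings.

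Lmo2, the adaptor, had an OCR range that started above both OCRRF values: it measured 1246, 1236, 1118 and 1189 CPM in OCR and 929 and 1048 in OCRRF. The fitted difference was -0.34 ± 0.12, with an adjusted p of 0.116. DESeq2 called it at 0.00878 and the fit without OCR replicate 3 at 0.0197, in a range of 0.00448 to 0.643 over the settings. With the scaling from genes of at least 5 CPM the difference was -0.20, and that of Fli1, below, -0.14. Fli1 stood at -0.28 ± 0.12 with an adjusted p of 0.215, and among the settings tried DESeq2 called it, at 0.0358, in a range up to 1. The other 7 members lay between -0.18 and 0.10.

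Cell cycle genes moved in the same comparisons. The 14 listed genes, led by Mcm3, summed to 546 CPM in OAL, 1204 in OCR and 478 in OCRRF. All 14 were called higher in OCR than in OAL, with a median log2 difference of 1.55, and all 14 lower in OCRRF than in OCR, with a median of -1.70. Whether they bear on the Gfi1b values was not tested.

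OCRRF versus OAL asks how far refed old HSCs lay from those never restricted. The test called 4 members, against 4.14% of the 31816 genes tested, and all 4 were lower, as were 2.48% of the genes tested. The member median was -0.27 and the median of all genes 0.12. Among genes with at least 5 CPM, the share called in either direction was 6.83% and the median -0.14, also below 0. All 10 fitted values were below 0, except that Mecom and Erg turned to 0.10 and 0.06 when the scaling came from genes with at least 5 CPM. That scaling moved the median of all genes to 0.26.

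Gata2 and its partner Lmo2 were 2 of the 4. Gata2 measured 567, 594, 594 and 558 CPM in OAL and 474 and 479.8 in OCRRF, while the OCR libraries measured 564, 546, 462 and 495. Both refed libraries lay below every OAL library and inside the OCR range. Gata2 fell by 0.29 ± 0.06 on the log2 scale from OAL to OCRRF, with an adjusted p of 0.0258. Lmo2 measured 1214, 1294, 1253 and 1270.3 CPM in OAL, above both OCRRF values given before, and fell by 0.36 ± 0.06 with an adjusted p of 0.014.

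Meis1, the homeodomain factor, measured 707, 764, 694 and 671 CPM in OAL, 618, 655, 565 and 670.5 in OCR and 567 and 601 in OCRRF. The refed libraries lay below every OAL library and inside the OCR range, and the highest OCR value nearly met the lowest OAL value. Meis1 fell by 0.29 ± 0.07 on the log2 scale from OAL to OCRRF, with an adjusted p of 0.0309. Hlf, at 466 and 514 CPM in OCRRF, was again below every OAL library and inside the OCR range. It fell by 0.40 ± 0.07 from OAL, with an adjusted p of 0.013.

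These 4 calls were close to the threshold. Gata2 lost its call when any 1 of the 6 libraries was left out (adjusted p 0.0513 to 0.153), and so did Meis1 (0.0501 to 0.159). Hlf lost it without OCRRF replicate 1 (0.112) and without OAL replicate 1 (0.0544). Lmo2 lost it without OCRRF replicate 1 (0.119) and without OAL replicate 2 (0.0515). A fit with 1 OCRRF library assumes that it varies as the OAL libraries do. With the scaling from genes of at least 5 CPM the differences shrank to -0.15 for Gata2, -0.15 for Meis1, -0.25 for Hlf and -0.22 for Lmo2, with adjusted p of 0.0509 to 0.170, and the joint fit of all diet groups called 0 genes of any kind. DESeq2 called the 4 genes and Fli1.

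Fli1 measured 333, 344, 335 and 305 CPM in OAL and 266 and 293 in OCRRF, with both refed libraries below every OAL library. Its fitted difference was -0.25 ± 0.07 and its adjusted p 0.0513, past the threshold in 4 of 7 other settings, and the difference was -0.11 with the scaling from genes of at least 5 CPM. Gfi1b stood at -0.40 ± 0.15 with an adjusted p of 0.105, and was called in 1 of 7 other settings. It was -0.26 with that scaling and ran from -0.62 to -0.19 when leaving out 1 library, with -0.19 without OAL replicate 3 and -0.23 without OCRRF replicate 1. Tal1 was at -0.19, Lyl1 at -0.16, Erg at -0.09 and Mecom at -0.04, none of them called.

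YCR versus YAL asks the same of a short restriction in young HSCs. The test called 1 of the 10 members, against 0.257% of the 18680 genes tested, and it was higher, as were 0.0642%. The member median was 0.04 and that of all genes 0.01, with 6 members above 0 and 4 below. Among genes with at least 5 CPM 0.392% were called, with a median of -0.01.

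Gfi1b was again the called gene, at 113, 112, 119 and 109 CPM in the 4 YAL libraries and 228, 159, 234 and 153 in the 4 YCR libraries. Every YCR value lay above every YAL value, with replicates 1 and 3 of YCR well above replicates 2 and 4. Gfi1b rose by 0.79 ± 0.14 on the log2 scale, a fold of 1.73, with an adjusted p of 0.048. That p sat close to the threshold, and 7 of the 8 fits without a library lost it. Leaving out the YAL libraries in turn gave 0.112, 0.116, 0.117 and 0.164, and leaving out YCR replicates 1, 2 and 3 gave 0.128, 0.0758 and 0.142. Without YCR replicate 4 it was 0.0339. DESeq2 gave 7.03e-06 and the joint fit of all diet groups 0.0659, in a range of 1.65e-06 to 0.125 over the settings.

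Mecom, the EVI1 gene, had its lowest diet group mean in YCR: it measured 293, 421, 387 and 287 CPM in YAL and 219, 223, 253 and 231 in YCR. No YCR library reached the lowest YAL library. The fitted difference was -0.56 ± 0.12, with an adjusted p of 0.101 from edgeR, and it was not called in any fit without a library (0.0894 to 0.256). DESeq2 called it at 0.0013, the joint fit at 0.0336 and the fit without a filter at 0.000427, in a range up to 0.177 over the settings. Tal1 measured 128, 88.0, 96.5 and 84.2 CPM in YCR, where the first library was the highest of the diet set, and stood at 0.36 ± 0.14 with an adjusted p of 0.456, or 0.22 without that library.

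YCRRF versus YCR asks what refeeding changed after the short restriction. Of the 10 members 0 were called by edgeR, against 0.0102% of the 19535 genes tested. There were 3 members at an unadjusted p below 0.05, with 7.27% of all genes, and DESeq2 called 0 members, with 1.43%. Gfi1b measured 177, 111, 109 and 132 CPM in YCRRF, a range that overlapped both other young groups. Its fitted difference from YCR was -0.56 ± 0.19, with an adjusted p of 0.497, and -0.48 without replicate 3.

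Mecom in YCRRF measured 345, 335, 229 and 348 CPM, where replicate 3 sat inside the YCR range and the other 3 sat above it. Its fitted difference from YCR was 0.42 ± 0.14 (adjusted p 0.496), or 0.55 without replicate 3. Tal1 stood at -0.38 ± 0.15 in this comparison, with an adjusted p of 0.599, at -0.36 without replicate 3 and at -0.25 without YCR replicate 1. In this comparison and the next, 0 members were called by edgeR without replicate 3, as with it.

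YCRRF versus YAL asks how far refed young HSCs lay from controls. Again edgeR called 0 members, and 0% of the 19334 genes tested. At an unadjusted p below 0.05 there were 0 members, with 3.69% of all genes, and DESeq2 called 0, with 0.0776%. Lyl1 had the largest fitted difference, 0.41 ± 0.24, and it rested on 1 library. It measured 60.2, 66.5, 128 and 67.3 CPM in YCRRF, and without replicate 3 the difference was 0.08. In the comparison with YCR, leaving that library out turned the Lyl1 difference from 0.20 to -0.12.

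**Figure D2:**
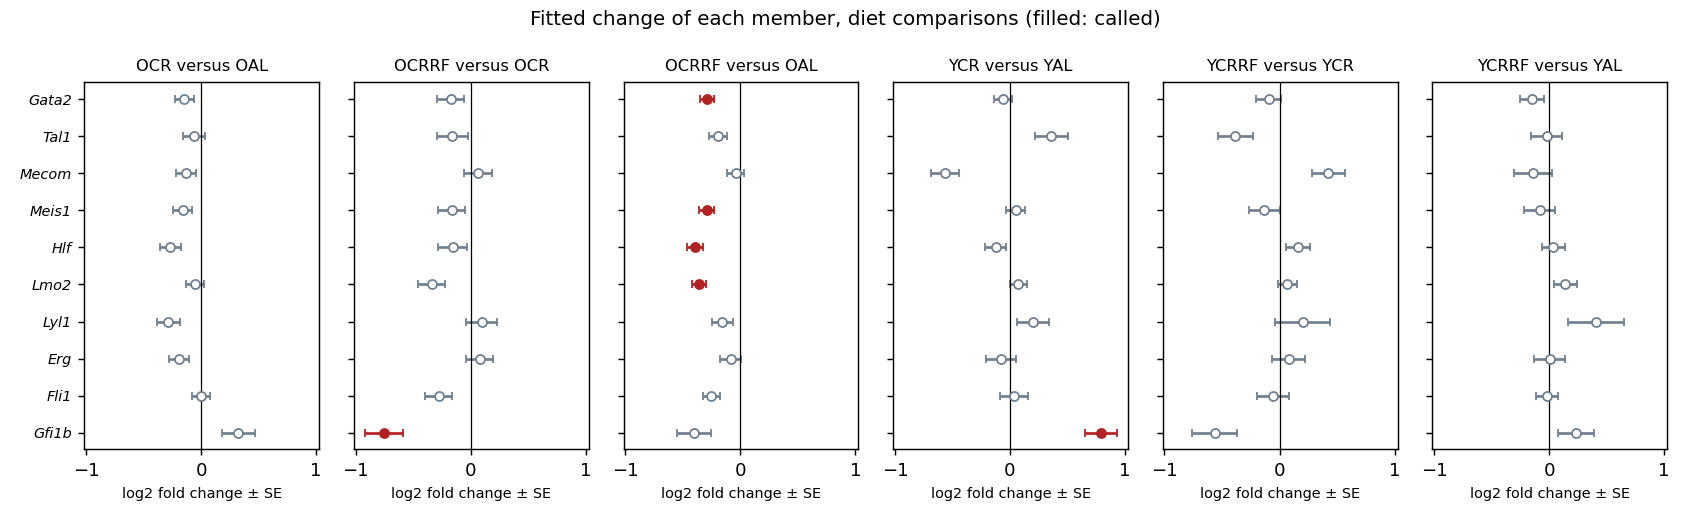
Fitted log2 fold change with its standard error (horizontal axis) for each of the 10 genes (vertical axis) in 6 diet comparisons. Filled red points passed the edgeR threshold: Gfi1b at -0.75 in OCRRF versus OCR and at 0.79 in YCR versus YAL, and Gata2, Meis1, Hlf and Lmo2 between -0.29 and -0.40 in OCRRF versus OAL.

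The comparisons within an age share libraries: each old group enters 2 of the 3 old comparisons, and each young group 2 of the 3 young ones. Their values are therefore given side by side and not counted as separate evidence.

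OAL versus YAL asks about age under free feeding, with the limits of source and library given above. Of the 10 members 0 were called by edgeR, against 14.8% of the 23525 genes tested and 19.2% of those with at least 5 CPM, whose median was -0.13, with 0.02 for the members. At an unadjusted p below 0.05 there were 2 members, with 30.8% of all genes, and DESeq2 called 0 members, with 20.2%. Fli1, at 292, 306, 289.7 and 286 CPM in YAL, stood at 0.18 ± 0.06 in OAL relative to YAL, with an adjusted p of 0.0604. With the scaling from genes of at least 5 CPM it was called, at 0.29 and 0.0109 in a range of 0.00124 to 0.297 over the settings, and that scaling moved the median of all genes from 0.05 to 0.16. Gfi1b stood at -0.38 ± 0.14 with an adjusted p of 0.0889, and at 0.00556 without OAL replicate 3, whose Gfi1b level was the highest in OAL. The other 8 members lay between -0.18 and 0.19.

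Whether restriction acted differently in old and young mice was tested as an interaction of age and diet in 1 fit of OAL, OCR, YAL and YCR. It called 0 members by edgeR, against 0.0424% of the 28328 genes tested. At an unadjusted p below 0.05 there were 3 members, with 8.93% of all genes, and DESeq2 called 0, with 0.731%. Those 3 were Mecom at 0.44 ± 0.15 (adjusted p 0.377), Lyl1 at -0.48 ± 0.18 (0.438) and Tal1 at -0.41 ± 0.18 (0.505), the last at -0.27 without YCR replicate 1. Gfi1b stood at -0.47 ± 0.26 with an adjusted p of 0.661, and at -0.29 without OAL replicate 3, so a difference between its old and young responses was not shown.

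Proteins that work with the members were followed through a list of 18 core partners and a list of 30 other stem cell regulators. In OCR versus OAL, 1 of the 18 partners was called higher and 3 lower, and of the 30 regulators 1 was higher and 8 lower. Of all genes tested 2.54% were higher and 3.03% lower. Gata1, which takes over from GATA2 on erythroid and megakaryocytic genes, rose by 1.46 ± 0.24 (log2) with an adjusted p of 0.000112, from a mean of 3.20 to 8.66 CPM. Gfi1, the paralog of Gfi1b, fell by 0.90 ± 0.22 with an adjusted p of 0.00983. Id2, which binds E-proteins and keeps them off DNA, fell by 1.05 ± 0.11. Mycn, Mllt3 and Hhex fell by 0.55, 0.42 and 0.42.

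In OCRRF versus OCR, which shares its OCR libraries with that comparison, the partner list had 1 gene called higher and 3 lower, and the regulator list 1 higher and 2 lower, with 0.694% of all genes higher and 2.71% lower. Gata1 fell by 1.53 ± 0.26 and Gfi1 rose by 1.47 ± 0.24, so that Gfi1 and Gfi1b had fitted changes of opposite sign in this comparison. Zfpm1, the FOG1 cofactor of GATA proteins, fell by 0.56 ± 0.12 with an adjusted p of 0.00514, and Cbfb, the partner of RUNX1, by 0.46. Among the regulators Id2 rose by 0.52 and Myb fell by 0.50.

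In OCRRF versus OAL, 0 partners were called higher and 3 lower, and 0 regulators higher and 4 lower, each by edgeR, with 1.66% of all genes higher and 2.48% lower. Zfpm1 fell by 0.59, Runx1 by 0.46 ± 0.09 with an adjusted p of 0.0225, and Ssbp2, a subunit of the LDB1 complex, by 0.29. Id2 fell by 0.49, Myb by 0.31 and Nfe2 by 0.29. The summed level of the 18 partners, led by Cbfa2t3, averaged 2377 CPM in OAL, 2185 in OCR and 2013 in OCRRF. In the young groups it was 2498 in YAL, 2561 in YCR and 2428 in YCRRF (2455 without replicate 3).

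Short restriction in young HSCs changed 1 gene of these lists: Mycn fell by 0.83 ± 0.14 with an adjusted p of 0.0335, from a mean of 602 to 332 CPM. Of all genes tested there, 0.193% were lower. In OAL versus YAL, 2 partners were higher and 6 lower, and 0 regulators were higher and 5 lower, with 6.89% of all genes higher and 7.93% lower. Pbx3, which encodes a MEIS1 partner, rose by 0.83 in OAL relative to YAL, Gata1 fell by 1.63, Foxo3 by 0.65, Spi1, which encodes PU.1, by 0.61 ± 0.10 and Ssbp3 by 0.47. In the remaining RNA comparisons 0 genes of either list were called by edgeR.

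Marker lists of other cells were summed in the same libraries. Erythroid markers, led by Tfr2, averaged 368 CPM in OAL, 297 in OCR and 321 in OCRRF, and 377 in YAL, 410 in YCR and 398 in YCRRF (392 without replicate 3). Granulocyte and monocyte markers, led by Lyz2, averaged 741 in OAL, 648 in OCR and 746 in OCRRF, and 943 in YAL, 689 in YCR and 1532 in YCRRF (1519 without replicate 3). Lymphoid markers, led by Cd79b, stayed between 48.6 and 91.5 CPM in the diet means. Mast cell and basophil markers, led by Cpa3, stayed between 4.2 and 9.07, with Fcer1a at 0 in all YAL, YCR and YCRRF libraries. Endothelial markers, led by Vwf, ranged from 702 in YCR to 1176 in OCRRF. Without replicate 3 the YCRRF mean of the lymphoid list went from 58.06 to 57.29, of the mast cell and basophil list from 4.205 to 4.159 and of the endothelial list from 974.7 to 1033. In that list Vwf averaged 435 CPM over the diet libraries and Eng 305, while Cdh5 at 0.502, Sox17 at 0.457, Plvap at 1.25 and Flt1 at 2.096 were near 0.

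Sums are carried by the most abundant genes, and single markers moved within them. In OCRRF versus OAL, where 4 members were called, 2 of 13 lymphoid markers tested, 2 of 12 erythroid markers and 1 of 12 granulocyte and monocyte markers were called higher and 0 lower, with median log2 differences of 1.14, 0.03 and 0.81. In OCRRF versus OCR, where Gfi1b fell, 2 lymphoid, 3 erythroid and 2 endothelial markers were higher and 1 erythroid marker lower. In OCR versus OAL 2 erythroid markers were higher, and 3 erythroid, 2 endothelial and 1 granulocyte and monocyte marker were lower. In OAL versus YAL the granulocyte and monocyte list had a median of -2.24, with 1 higher and 2 lower. The lymphoid list had 2 higher and 4 lower there, the endothelial list 2 and 1, and the erythroid list 0 and 4. In YCR versus YAL 0 markers of these 4 lists were called. What part any of these cells had in the members' values was not tested.

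Of the 12 HSC markers themselves, 1 was called higher and 5 lower in OCR versus OAL, 1 higher and 1 lower in OCRRF versus OCR, and 0 higher and 3 lower in OCRRF versus OAL by edgeR, against the shares of all genes given before for these comparisons. Cell cycle genes in the young groups summed to 895 CPM in YAL, 1160 in YCR and 675 in YCRRF (652 without replicate 3), with 1 of 14 called higher in YCR versus YAL, the comparison in which Gfi1b rose. In OCRRF versus OAL 2 of the 14 were lower, and in OAL versus YAL 8 were lower.

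In the transplanted cells the knockdown targets come first. Kdr, which encodes the VEGF receptor 2, measured 1.93, 2.21, 3.28 and 2.03 CPM in KdrKD and 6.04 and 6.07 in KdrScr. In DoubleKD it measured 1.24, 0.556, 1.60 and 1.35 CPM and in DoubleScr 3.98 and 4.63. Every knockdown library lay below both libraries of its control. The fitted differences were -1.35 ± 0.25 in KdrKD and -1.86 ± 0.37 in DoubleKD, with adjusted p of 0.247 and 0.272, neither of them called.

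Bmpr1a, a BMP receptor, measured 4.44, 0.657, 2.22 and 0.595 CPM in DoubleKD, in the order shRNA1, shRNA1, shRNA2, shRNA2, and 5.21 and 4.43 in DoubleScr. The first shRNA1 library overlapped the controls and the other 3 lay below them. The fitted difference was -1.29 ± 0.72 with an adjusted p of 0.602. In KdrKD, without a Bmpr1a shRNA, it measured 1.67, 3.73, 7.96 and 7.68 CPM and in KdrScr 8.29 and 4.37, a difference of -0.26 ± 0.55.

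For the members, KdrKD versus KdrScr gave 0 calls by edgeR, against 0.0149% of the 20098 genes tested. There were 3 members at an unadjusted p below 0.05, with 8.9% of all genes, and DESeq2 called 1, Hlf, with 1.51%. Hlf measured 264, 237, 251 and 307 CPM in KdrKD and 335 and 344 in KdrScr, with no overlap. Its fitted difference was -0.36 ± 0.10 with an adjusted p of 0.363, and 0.0495 by DESeq2, in a range up to 0.512 over the settings. Lmo2, at 849.7, 840.3, 855 and 807 CPM in KdrKD and 954 and 978 in KdrScr, also did not overlap and stood at -0.20 ± 0.06.

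Gfi1b measured 110.4, 163, 148 and 111 CPM in KdrKD and 98.3 and 92.5 in KdrScr. All KdrKD values were above both controls, at a fitted difference of 0.48 ± 0.16 and an adjusted p of 0.458. DoubleKD versus DoubleScr gave 0 members called by edgeR, against 0.00498% of the 20072 genes tested. At an unadjusted p below 0.05 there were 0 members, with 9.85% of all genes, and DESeq2 called 0, with 1.65%. The fitted differences of the 10 members there ran from -0.14 for Lmo2 to 0.23 for Hlf. That of Hlf was 0.06 without the second shRNA1 library, which measured 444 CPM against 283 to 314 in the other 3 DoubleKD libraries. Cell cycle genes summed to 2023 CPM in KdrKD (1909 to 2279) and 1718 in KdrScr (1603 and 1832), without overlap. In DoubleKD they summed to 2494 (2187 to 2898) and in DoubleScr to 2518 (2380 and 2655), with overlap. Granulocyte and monocyte markers averaged 2517 CPM in KdrKD (1380 to 3672) and 1763 in KdrScr (912.2 and 2613). In DoubleKD they averaged 1986 (947 to 3715) and in DoubleScr 3850 (2441 and 5259), so each knockdown overlapped its control on this list. By edgeR 0 genes of any list in this paragraph were called in KdrKD versus KdrScr or in DoubleKD versus DoubleScr. With 2 control libraries, sums that overlap or do not are given as a description and not as a test. Some other lists did not overlap. HSC markers were lower in KdrKD than in KdrScr (3595 to 3958 against 4160 and 4356). So were endothelial markers (353.5 to 395 against 453.9 and 506.1). The 4 markers led by Cd34 were higher in KdrKD (493.6 to 588.9 against 398.9 and 475.2). They were also higher in DoubleKD (592.6 to 925.4 against 496.3 and 541.6). Lymphoid markers were likewise higher in KdrKD (42.09 to 66.79 against 34.05 and 40.17) and in DoubleKD (46.93 to 60.79 against 34.67 and 44.02). The part of any of these lists in the members' values was not tested.

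Genes whose levels ran most closely with each member were found over the 22 diet libraries, after subtracting the mean of each age, among 12329 genes with at least 5 CPM. The points share diet groups and library quality, and Pearson's r is given as a description. Without replicate 3 of YCRRF, a setting added after the values were seen, 16 of the 30 genes named stayed among the 3 nearest of their member, and r lay between 0.697 and 0.873. Lyl1 had the closest match, Gas5 at 0.913, then Kxd1 at 0.902 and Cst3 at 0.896. These leaned on that library, in which Lyl1 was highest, and were 0.796, 0.826 and 0.737 without it. Meis1 ran with Mknk2 at 0.886, Rassf2 at 0.872 and Gcnt2 at 0.86. Mecom ran with Oxr1 at 0.884, Rc3h2 at 0.884 and Arhgap6 at 0.881 (0.871, 0.87 and 0.873 without that library). Gata2 ran with Sppl3 at 0.868, Ppp2cb at 0.859 and Maf1 at 0.856.

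Gfi1b ran with Hspa8 at 0.85, with Myb, itself a stem and progenitor cell regulator, at 0.814, and with Gm15459 at 0.806. For Myb r was 0.889 within the old libraries and 0.759 within the young. Lmo2 ran with Adssl1 at 0.825, Mrfap1 at 0.806 and Txn2 at 0.763. Tal1 ran with Atg16l2 at 0.787, Sft2d1 at 0.783 and Plekhm2 at 0.776. Matches were looser for Fli1, with Exoc7 at 0.78, Carm1 at 0.731 and Kctd12 at 0.705. Hlf had 9530068E07Rik at 0.762, Zfand5 at 0.758 and Nfe2l2 at 0.744, and Erg had 1700003E16Rik at 0.749, Smim8 at 0.745 and Emc10 at 0.718. Several matches were uneven between the ages: r was 0.296 within the old libraries and 0.894 within the young for Kctd12, 0.354 and 0.95 for Rc3h2, 0.638 and 0.968 for Cst3, and 0.522 and 0.84 for Plekhm2. The reverse held for Nfe2l2, at 0.886 and 0.55, and Mrfap1, at 0.918 and 0.585.

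Among the members themselves the highest r was 0.676, between Gata2 and Meis1, followed by Tal1 and Gfi1b at 0.646 and Mecom and Hlf at 0.569. Without replicate 3 of YCRRF these were 0.55, 0.627 and 0.572, so that Tal1 and Gfi1b came first. The lowest was -0.387, between Mecom and Gfi1b, and without that library -0.493, between Tal1 and Mecom. Lyl1 depended on it most: its r with Gata2 went from -0.09 to 0.482 and with Meis1 from -0.247 to 0.384.

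Accessible chromatin was compared between OCR (4 libraries) and OCRRF (2 libraries), with 15721335 to 19558148 reads in the 131918 peaks of each library. A peak was assigned to a member where it overlapped the gene with 10000 bases on each side. There were 246 such peaks, 85 of them at Mecom, 42 at Meis1 and 38 at Fli1, the longer genes with Erg (25), and 235 were tested. A peak counts as called at an adjusted p below 0.05, a fold above 1.5 and a mean log2 CPM above 1.5. Of the 235 peaks 0 were called by edgeR, against 0.221% of the 123372 peaks tested. At an unadjusted p below 0.05 there were 28, with 11.7% of all peaks, and DESeq2 called 0, with 0.148%.

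The median difference of these 235 peaks was -0.08 (log2, OCR relative to OCRRF), against 0.01 over all peaks. Of the tested peaks, 0 of 7 at Gata2 were higher in OCR, 20 of 77 at Mecom, 2 of 8 at Lyl1, 10 of 42 at Meis1, 14 of 37 at Fli1, 4 of 10 at Lmo2, 3 of 6 at Tal1, 13 of 24 at Erg, 13 of 18 at Hlf and 5 of 6 at Gfi1b. The locus medians ran from -0.18 at Meis1 to 0.29 at Gfi1b. At Gata2 all 7 peaks were thus lower in OCR. The most open of them, chr6:88202903-88203735, measured 34.2, 36.05, 37.8 and 41.2 CPM in OCR and 49.99 and 42.3 in OCRRF. Its OCR values lay below both OCRRF values, at -0.31 ± 0.08 and an adjusted p of 0.0753. The peak at the Meis1 start, chr11:19018394-19019263, chosen after its values were seen, measured 41.6, 39.4, 40.9 and 43.6 CPM in OCR and 55.4 and 47.98 in OCRRF. It was the only one of the 235 past the adjusted p threshold, at -0.32 ± 0.08 and 0.0372, and it stayed under the fold threshold.

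The most open peaks at the other loci were not called either. They lay at -0.20 in Mecom (chr3:30508144-30509931, at a promoter), -0.20 in Lmo2 (chr2:103969148-103971653, at a promoter), -0.18 beside Meis1 (chr11:18876555-18878311) and -0.16 beside Gfi1b (chr2:28598756-28599743, nearest the start of Gtf3c5), the only tested Gfi1b peak below 0. Those of Tal1 (chr4:115062451-115064258), Lyl1 (chr8:84704540-84705962, nearest the start of Nfix), Hlf (chr11:90333109-90335785) and Fli1 (chr9:32508301-32509041) lay between -0.02 and 0.06, and that of Erg (chr16:95438856-95440152) at 0.23.

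H3K4me3, a mark of active promoters, and H3K27me3, a mark laid by Polycomb at silenced ones, were available for 2 OCR libraries each, so diets cannot be compared. The files give the mean signal per base from each of 31552 RefSeq transcript starts, over 750 bases for H3K4me3 and 2000 for H3K27me3, and the authors normalized the histone libraries to a fixed number of reads. The members have 18 of these starts. At the first start listed for each gene, H3K4me3 ranged from 27.3 to 51.1 in the first library and from 26.9 to 49.3 in the second. The medians over those 10 starts were 43.3 and 41.9, against 10.2 and 9.64 over all starts. H3K27me3 at the same starts had medians of 0.168 and 0.149, against 0.312 and 0.316.

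Fli1 (start 32541452) had 51.1 and 49.3, above 99.2% of all starts in both libraries. Gata2 was marked more at its inner start, 88198664, with 51.6 and 43.4, than at its outer one, 88193891, with 38.35 and 37.5. Tal1 had 48.98 and 45.85 at 115057811 and 33.4 and 29.3 at 115056426. Meis1, Hlf and both Mecom promoters lay between 38.1 and 46.2 in either library. Lyl1 with 27.3 and 31.3 and Gfi1b with 27.8 and 26.9 were the lowest of the first-listed starts.

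Erg was marked unlike the rest at its alternative starts. The start at chr16:95459348 had 45.7 and 44.55 for H3K4me3 and 0.0722 and 0.263 for H3K27me3. The outer start at chr16:95586593 had 8.57 and 7.21 for H3K4me3, above 48.1% and 47.1% of all starts and so below their median. For H3K27me3 it had 5.66 and 6.05, above 96.8% and 98.0% of all starts. Both of its marks were at least this high in both libraries at 240 of the 31552 starts, or 0.761%. The remaining Erg start, chr16:95530365, had 0.284 and 0.273 for H3K4me3. In sorted bulk cells, both marks on 1 chromosome and each mark in different cells cannot be told apart.

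Lmo2 also split by start. Its start at chr2:103970287 had 44.95 and 42.7 for H3K4me3 in the 2 libraries and that at chr2:103969557 had 44.2 and 39.7, while the outer start at chr2:103957995 had 3.22 and 3.25. The accessible peak at that outer start, chr2:103957665-103958513, was small, at 4.73, 4.67, 4.43 and 3.76 CPM in OCR and 2.82 and 2.36 in OCRRF. All OCR values lay above both OCRRF values, at 0.76 ± 0.24 and an adjusted p of 0.143, and this peak was chosen after its values were seen.

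**Figure D3:**
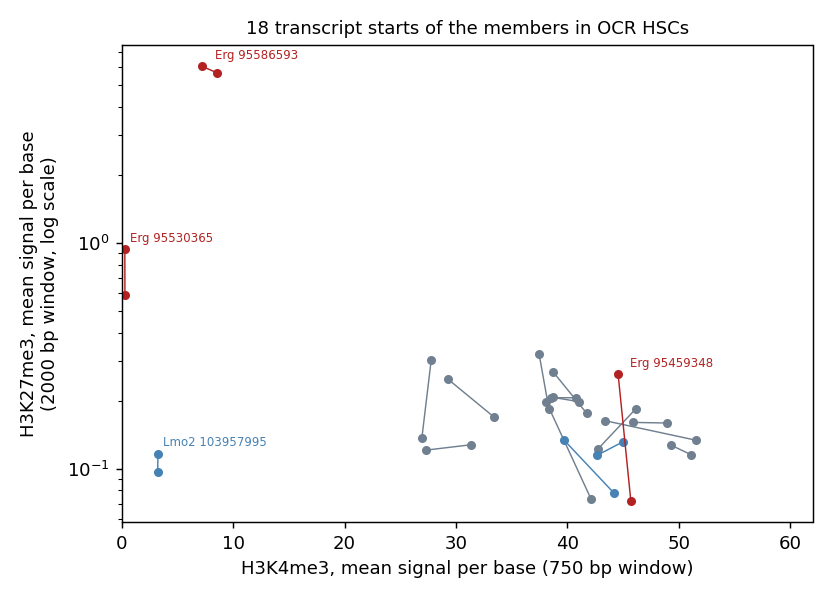
H3K4me3 signal per base (horizontal axis, from 0) against H3K27me3 signal per base (vertical axis, log scale) at the 18 RefSeq starts of the 10 genes in OCR HSCs. Each point is 1 of 2 libraries and lines join the pair. The Erg start at 95586593 is high in H3K27me3, at 5.66 and 6.05, and the Lmo2 start at 103957995 is low in both marks.

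PU.1, the ETS factor encoded by Spi1, was mapped in the 3 old diet groups with 2 libraries apiece. The first library of each group used another antibody than the second, as far as labels and file names tell, so antibody and replicate cannot be told apart. Peaks were called per library, 3046 and 2900 in OAL, 5464 and 3852 in OCR and 2817 and 2262 in OCRRF. Overlapping peaks were joined into 6820 sites. At the members there were 9 and 8 in OAL, 12 and 11 in OCR and 6 and 6 in OCRRF, numbers that move with each library's total and allow no comparison of diets.

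Those peaks form 14 sites at 7 loci, and Gata2, Hlf and Lmo2 have none within 10000 bases. Of the 14, 5 had a peak in all 6 libraries (35.7%), as did 1421 of all 6820 sites (20.8%). A further 4 had a peak in 1 library (28.6%, against 36.7% of all sites). An accessible peak overlapped 13 of the 14, the exception being the site Mecom-3.

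Fold enrichment over background at the summit is given in the order OAL, OAL, OCR, OCR, OCRRF, OCRRF. The site Meis1-2, in an intron at chr11:18969874-18970393, had 14.5, 16.9, 19.1, 16.4, 14.8 and 14.5, and its 19.1 was the highest value at any of the 14 sites. The site Meis1-1, in an intron at chr11:18924914-18925347, had 15.04, 17.2, 17.3, 17.85, 13.5 and 11.6. Thus Meis1 held both of its sites in every library.

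The site Mecom-2, in an intron at chr3:30105014-30105449, had 16.3, 13.6, 17.6, 13.01, 15.6 and 12.8. Lyl1-2, at chr8:84701167-84701829, spanning the Lyl1 start with its summit 102 bases upstream, had 9.69, 9.27, 12.9, 11.25, 12.2 and 10.5. For Mecom-2 and Lyl1-2 the first library of each group was the higher one. At both Meis1 sites the second library was higher in OAL and the first in OCRRF, and in OCR the 2 sites differed.

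Sites seen in fewer libraries included Gfi1b-1, at the Gfi1b start (chr2:28621796-28622159), with 6.89 in the first OAL library and 8.06 and 6.89 in the OCR libraries. No peak was called there in the second OAL library or in either OCRRF library. The top site of Fli1, in an intron at chr9:32530995-32531357, reached 9.64 in the second OCR library and had peaks in 4 libraries. Erg had 1 site, in an intron at chr16:95436666-95436922, with 4.703 in the second OAL library.

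The sequences of 4 of the 5 sites found in all 6 libraries are shown, as examples of sites with a PU.1 peak in both libraries of every diet group. Each is 200 bases around the summit, plus strand, GRCm38: chr3:30105135-30105334, chr11:18925018-18925217, chr11:18970071-18970270 and chr8:84701255-84701454, in the order printed. Capitals mark GAGGAAG or AGGAAGT, or on the other strand CTTCCTC or ACTTCCT, letters of the ETS motif that PU.1 prefers. The 2 overlap as GAGGAAGT, and AGGAAGT was added after the site sequences were seen.
Mecom-2: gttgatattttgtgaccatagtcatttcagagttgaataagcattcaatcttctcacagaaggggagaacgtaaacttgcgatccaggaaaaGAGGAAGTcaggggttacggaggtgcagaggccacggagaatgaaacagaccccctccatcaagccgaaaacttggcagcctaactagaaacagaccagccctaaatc
Meis1-1: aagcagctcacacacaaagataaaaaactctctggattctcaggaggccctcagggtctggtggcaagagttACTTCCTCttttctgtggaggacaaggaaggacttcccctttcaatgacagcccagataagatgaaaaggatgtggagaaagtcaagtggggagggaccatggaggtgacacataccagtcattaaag
Meis1-2: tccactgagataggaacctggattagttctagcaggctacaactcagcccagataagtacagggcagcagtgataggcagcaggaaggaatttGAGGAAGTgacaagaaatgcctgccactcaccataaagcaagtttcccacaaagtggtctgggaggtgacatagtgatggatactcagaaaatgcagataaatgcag
Lyl1-2: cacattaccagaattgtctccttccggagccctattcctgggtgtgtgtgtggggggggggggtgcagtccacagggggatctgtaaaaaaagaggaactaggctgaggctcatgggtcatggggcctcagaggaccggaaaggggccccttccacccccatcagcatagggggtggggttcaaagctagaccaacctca

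The capitals lie at offsets of -8, -28 and -7 bases from the summit in the first 3 sequences, and the Lyl1 window holds neither motif. Of the 14 member windows 8 hold GAGGAAG, against 44.8% of 6785 windows at all sites and 7.25% of 13570 windows placed 2 kb away. For AGGAAGT it is 10 of 14, against 48.9% and 5.04%. Either motif is in 10 of 14 (71.4%), against 58.0% and 10.8%. The GATA letters AGATAA, or TTATCT, are in 2 of the 14, both of them at Meis1, against 9.2% of all sites and 11.3% of the flanks. The E-box CAGCTG, the same on both strands, is in 1 of 14, at the other Lyl1 site, against 11.2% and 8.78%.

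RefSeq promoter windows of 300 bases (GRCm38) were found for 8 of the 10 members, 13 windows in all. Fli1 and Lmo2 had none, so their promoters are not covered here. Either ETS motif is in none of these windows, against 19.1% of 32851 promoters. At Fli1, the PU.1 window over its start at 32541452 (chr9:32541365-32541564), counted among the 14 above, holds both motifs. The members' windows held a median of 15 CpG, against 7 over all promoters, at a GC content of 52.0% against 52.7%. A match of letters is a description and no measure of binding.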

How the data were processed

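The authors deposited raw read counts per gene for the RNA libraries, made with cutadapt, STAR on mm10 and featureCounts, and raw read counts per consensus peak for ATAC-seq, made with BWA and MACS2. The deposited histone files hold the signal summed and averaged per base over a window at each RefSeq transcript start. The PU.1 peak files, which the authors made with MACS2 for each library, hold fold enrichment at the summit, an integer score, and -log10 p and -log10 q values.

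Counts were tested with edgeR 4.0.16 in R 4.3.3 (TMM scaling, filterByExpr, quasi-likelihood F test), each comparison on its own groups and with Benjamini-Hochberg adjustment over all features tested. DESeq2 1.42.0 and other settings were alternatives. Log2 CPM used a prior count of 2. All 10 members passed the filter on low counts in every comparison. Gene positions and exon lengths came from GENCODE M21, which held 54510 of the 55376 symbols, and sequences from GRCm38. Other steps used Python 3.11.15 with pandas 2.3.3, numpy 2.4.6, scipy 1.17.1, pysam 0.24.0 and matplotlib 3.10.9.

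The members and lists were chosen with earlier results of these data known. The lists were core partners, other stem cell regulators, HSC markers, markers of cells outside the HSC gate, erythroid, mast cell and basophil, granulocyte and monocyte, lymphoid and endothelial markers, and cell cycle genes. A further marker list, 1 partner gene and 1 PU.1 site are not reported here. Genes named were the members, Kdr and Bmpr1a; per comparison at most 6 called partners or regulators averaging 5 CPM or more, by fold change; the 3 genes most like each member; per locus the PU.1 site with the highest enrichment and the accessible peak with the highest mean count; and each marker list's most abundant gene. Histone and PU.1 values, with 2 libraries a group, were described without a test. OAL libraries of ATAC-seq and histone marks were not analysed here.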

Additional observations from a re-analysis of the deposited data

Results flagged for a closer look

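In groups of 4 libraries, a level was singled out where 1 library lay far from the other 3 relative to the whole range of the group. This applied to 5 of the 84 groups tested, and chance alone singles out about 1 in 20 groups. Mecom measured 228.6 CPM in YCRRF replicate 3, where the nearest other library had 335.1. Lyl1 measured 128.4 CPM in that same library, against 67.31 in the nearest. Gfi1b measured 115.8 CPM in OAL replicate 3, against 78.77 in the nearest. Erg measured 45.58 CPM in the first DoubleKD library with shRNA2, against 50.76 in the nearest. Kdr, a knockdown target, measured 34.06 CPM in YAL replicate 3, against 21.99 in the nearest.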

How the results depend on the processing

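Of 1520 member fold changes recomputed under an alternative, 1397 kept their direction and their side of the threshold, 39 lost the call, 23 gained one and 61 changed sign. No sign changed where the member was called, and the largest such main value was 0.2 in size (log2). Of the 61, 37 arose when 1 library was left out. The cause of the shifts below was not tested.

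The count of called members moved as follows. In OCR versus OAL (main count 0) it was 2 with no filter on low counts, 1 by DESeq2 and 0 to 1 when leaving out 1 library. In OCRRF versus OCR (main 1) it was 0 with TMM from genes of at least 5 CPM, 0 in 1 fit of all groups, 2 by DESeq2 and 0 to 2 when leaving out 1 library. In OCRRF versus OAL (main 4) it was 5 with DESeq2 size factors, 5 by DESeq2, 6 with no filter, 0 with TMM from genes of at least 5 CPM, 2 with at least 10 counts in every library, 0 in 1 fit of all groups and 0 to 2 when leaving out 1 library. In YCR versus YAL (main 1) it was 2 with no filter, 2 by DESeq2 and 0 to 1 when leaving out 1 library. In OAL versus YAL (main 0) it was 1 with TMM from genes of at least 5 CPM, 1 with no filter, 1 with at least 10 counts and 0 to 1 when leaving out 1 library. In KdrKD versus KdrScr (main 0) DESeq2 called 1. At the loci, 1 accessible peak passed on the adjusted p alone (main 0). In YCRRF versus YCR, YCRRF versus YAL, the interaction and DoubleKD versus DoubleScr the count was 0 by edgeR and DESeq2 under every alternative run, with 3, 0, 3 and 0 members at an unadjusted p below 0.05.

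With the replicate number as a block, that is, paired by number, 2 members were called in OCRRF versus OCR, 5 in OCRRF versus OAL and 0 in YCR versus YAL. The labels give same-numbered libraries a number in common and do not say what it stands for. Their correlation after removing group means lay between -0.157 and 0.057 in the diet comparisons and between -0.264 and 0.216 in the transplanted. In a group of 2 libraries the values left are mirror images. OCR replicate 1 had -0.157 with OCRRF replicate 1 and 0.157 with OCRRF replicate 2. These values therefore cannot decide whether same-numbered libraries belong together.

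Scaling also moved the balance of all called genes. In OCRRF versus OAL 40.1% of 1316 called genes were higher, but 93.3% of 808 with TMM from genes of at least 5 CPM, 65.3% with at least 10 counts, 26.4% with DESeq2 size factors and 22.8% by DESeq2. With TMM from genes of at least 5 CPM the share went from 20.4% to 37.2% in OCRRF versus OCR, from 45.6% to 56.2% in OCR versus OAL and from 46.5% to 70.5% in OAL versus YAL. Without the first OCRRF library 38 genes were called in OCRRF versus OAL, and without the second 62.

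Signs changed under these settings. With TMM from genes of at least 5 CPM, Fli1 was 0.0244 in OCR versus OAL, Mecom 0.1022 and Erg 0.0589 in OCRRF versus OAL, Gata2 0.098, Lmo2 0.0799 and Mecom 0.0007 in OAL versus YAL, and Gata2 -0.0081 in DoubleKD versus DoubleScr. With at least 10 counts, Fli1 was 0.0104 in OCR versus OAL, Mecom 0.0058 in OCRRF versus OAL, Gata2 0.091 and Lmo2 0.0722 in OAL versus YAL, and Gata2 -0.0019 in DoubleKD versus DoubleScr. With DESeq2 size factors, Mecom was -0.0053 in OCRRF versus OCR, Gata2 0.0319 and Lmo2 0.0136 in OAL versus YAL, and DESeq2 itself gave -0.0053, 0.0317 and 0.0137. Erg in YCRRF versus YAL was -0.0031 with no filter and -0.0034 in 1 fit of all groups. With shRNA1 alone, Gata2 was -0.0611, Erg 0.0329 and Fli1 -0.0803 in DoubleKD versus DoubleScr, and with shRNA2 alone Lyl1 was -0.1405.

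When leaving out 1 library, these fold changes crossed 0, from the lowest to the highest value. OCR versus OAL: Fli1 -0.0526 to 0.0384. OCRRF versus OCR: Mecom -0.0225 to 0.1577. OCRRF versus OAL: Mecom -0.0994 to 0.007, Erg -0.2122 to 0.0139. YCR versus YAL: Fli1 -0.115 to 0.1109, Meis1 -0.018 to 0.0928. YCRRF versus YCR: Lyl1 -0.1212 to 0.3209, Erg -0.0074 to 0.1392, Fli1 -0.1373 to 0.0878. YCRRF versus YAL: Erg -0.0609 to 0.0636, Fli1 -0.0509 to 0.0109, Meis1 -0.1949 to 0.0196, Hlf -0.0043 to 0.0987, Tal1 -0.0982 to 0.0298. OAL versus YAL: Gata2 -0.0689 to 0.0168, Lmo2 -0.0794 to 0.0403, Hlf -0.0012 to 0.1053. Interaction: Fli1 -0.1004 to 0.1402. KdrKD versus KdrScr: Gata2 -0.0145 to 0.1699, Lyl1 -0.1183 to 0.0018. DoubleKD versus DoubleScr: Gata2 -0.041 to 0.0405, Lyl1 -0.0253 to 0.1374, Erg -0.1329 to 0.1254, Mecom -0.1461 to 0.0239.

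The median H3K4me3 of the members was 45.3 and 42.7 at each gene's most marked start, against 43.3 and 41.9 at the first listed, and H3K27me3 was 0.132 and 0.149 against 0.168 and 0.149. The 14 PU.1 sites became 13 at a -log10 q of at least 5 and 12 to 14 when leaving out 1 library. Limits are the 2 OCRRF libraries, the difference in genes counted between old and young libraries, the unstated strand, and that ATAC-seq and histone libraries of OAL were not analysed here.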
